A study of Mus musculus with 6 samples.

Results

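Chemokines are small secreted proteins that steer leukocytes, and they act through G protein-coupled receptors on the cells they attract. The genes described here are the chemokine ligands and receptors of the mouse, chosen by symbol (Ccl, Cxcl, Ccr, Cxcr and Ackr with a number, and Xcl1, Cx3cl1, Cx3cr1 and Ccrl2). The rule found 60 genes, 37 ligands and 23 receptors, among the 55416 genes of the count table, after 3 matches annotated as pseudogenes were left out. One of the 3 is Cxcl11, which the annotation lists as a polymorphic pseudogene.

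The RNA was that of whole livers from male mice carrying floxed alleles of Ephb2, a receptor tyrosine kinase for ephrin-B ligands. The 3 WT mice were Ephb2flox/flox without Cre, and the 3 KO mice were Ephb2flox/flox-PdgfrbCreERT2. All 6 received tamoxifen by injection for 5 days at 8 to 10 weeks of age and then 8 weeks of a choline deficient, amino acid defined (CDAA) diet, with 45% of calories as fat, 0.1% methionine and 1% cholesterol. The diet had no added choline. The driver acts in cells with an active Pdgfrb promoter, which the labels give as hepatic stellate and mesenchymal cells, while the RNA is that of all liver cells. Mice with Cre and no floxed allele, and mice on another diet, were not analysed here, so an effect of Cre and an effect of the deletion cannot be told apart. The question is how chemokine RNA of the whole liver on this diet depends on Ephb2 in the cells that Pdgfrb marks.

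Total counts ran from 21160690 to 26339251 per library. Hepatocyte markers, as a check of the tissue, summed to between 42376 and 57459 CPM, with all 7 genes present in every library. CPM is the count as a share of a library's reads in the 17083 genes kept for testing, scaled to a fixed total with edgeR's TMM factors. Ephb2 itself stood at 9.46, 8.28 and 12.4 CPM in WT replicates 1 to 3 and at 6.01, 8.87 and 6.95 CPM in KO replicates 1 to 3, which overlap (log2 ratio of means -0.47, two-sided exact permutation test, p = 0.2, where 3 against 3 libraries allow no p below 0.1). Acute phase genes of hepatocytes summed to 12691, 5607 and 16208 CPM in WT livers against 6548, 20456 and 5618 CPM in KO livers, so both genotypes held libraries with high and with low values. Beyond a number within its genotype, nothing in the labels says how one sample relates to another, so every p rests on the spread among these 6, part of which may be technical.

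Chemokines are classed by the spacing of their first cysteines into CC, CXC, CX3C and C ligands. CXCL1, CXCL2 and CXCL3 recruit neutrophils through CXCR2, CXCL9 and CXCL10 recruit T cells and NK cells through CXCR3, and CCL2 calls CCR2-bearing monocytes out of the blood. CXCL12 retains leukocytes and progenitors through CXCR4, while CX3CL1 is made as a membrane-anchored protein that holds CX3CR1-bearing cells. Atypical receptors (Ackr genes) bind chemokines without classical G protein signalling and mostly remove them. Many inflammatory chemokine genes are switched on by NF-kB, a transcription factor downstream of TNF, interleukin-1 and toll-like receptors.

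The stretches before the start of 4 CXC ligand genes are shown because 3 of them, which lie close together on chromosome 5, carry the same NF-kB match while their RNA levels in these livers differed widely. All come from RefSeq promoters on GRCm38.p6, run 5′ to 3′ on the gene's strand from 120 to 31 bases before the RefSeq start, and have the matches to the NF-kB consensus in capitals. The positions are chr5:90891125-90891214 (plus strand) for Cxcl1, chr5:90903779-90903868 (plus) for Cxcl2, chr5:90785981-90786070 (plus) for Cxcl3 and chr5:92348920-92349009 (minus) for Cxcl10.
Cxcl1: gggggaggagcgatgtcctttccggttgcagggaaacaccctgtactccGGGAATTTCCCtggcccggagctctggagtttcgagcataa
Cxcl2: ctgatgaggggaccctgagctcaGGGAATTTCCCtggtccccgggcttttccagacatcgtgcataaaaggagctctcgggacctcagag
Cxcl3: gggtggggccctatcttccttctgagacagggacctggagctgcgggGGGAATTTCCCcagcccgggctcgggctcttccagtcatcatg
Cxcl10: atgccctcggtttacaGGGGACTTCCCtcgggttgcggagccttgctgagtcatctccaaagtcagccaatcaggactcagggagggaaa

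Each run of capitals holds 2 overlapping matches 1 base apart, since the consensus reads nearly the same on both strands. RefSeq windows were found for 46 of the 60 genes. Over the 250 bases before the start, searched on both strands, 12 of the 46 held an NF-kB consensus match, namely Ackr2, Ccl1, Ccl9, Ccl20, Ccr1, Ccr3, Ccr6, Ccrl2, Cxcl1, Cxcl2, Cxcl3 and Cxcl10, where 8.23% of all 27025 genes with a window did. The interferon-stimulated response element, searched as a pair of TTTC runs with any 2 bases between them, was in the windows of Ccl19, Cxcl10 and Cxcl14 (3.46% of all genes) and the STAT motif TTCNNNGAA in those of Ccl17, Ccr1l1, Ccr6 and Cxcl14 (8.13% of all genes). No match of one of these motifs overlapped a match of another. The window of Cx3cl1 held none of the 3 motifs. A match is a run of letters and not a measured site.

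Levels between genes were compared per kilobase of annotated exon, as the mean over all 6 libraries. Of the 60 genes, 57 had at least 1 count and 30 reached 1 CPM per kb, 19 ligands and 11 receptors. Cxcl12, the ligand of CXCR4, was the highest at 41.2 CPM per kb, followed by the macrophage-derived CC ligands Ccl6 (26.3) and Ccl9 (23.7), the transmembrane CXC ligand Cxcl16 (18.1), the epithelial and stromal ligand Cxcl14 (14.8) and the neutrophil attractant Cxcl1 (10.2). Cx3cl1 (6.58) and Ccl2 (5.17) completed the 8 highest ligands. The receptors lay lower, led by Cx3cr1 (9.87), carried by monocytes and macrophages, Cxcr4 (8.58), found on most leukocytes, and the monocyte receptor Ccr2 (4.94). Ccrl2, which binds the chemoattractant chemerin without signalling, and Ccr1, a receptor of neutrophils and macrophages, stood at 2.33 and 1.63 CPM per kb.

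**Figure D1:**
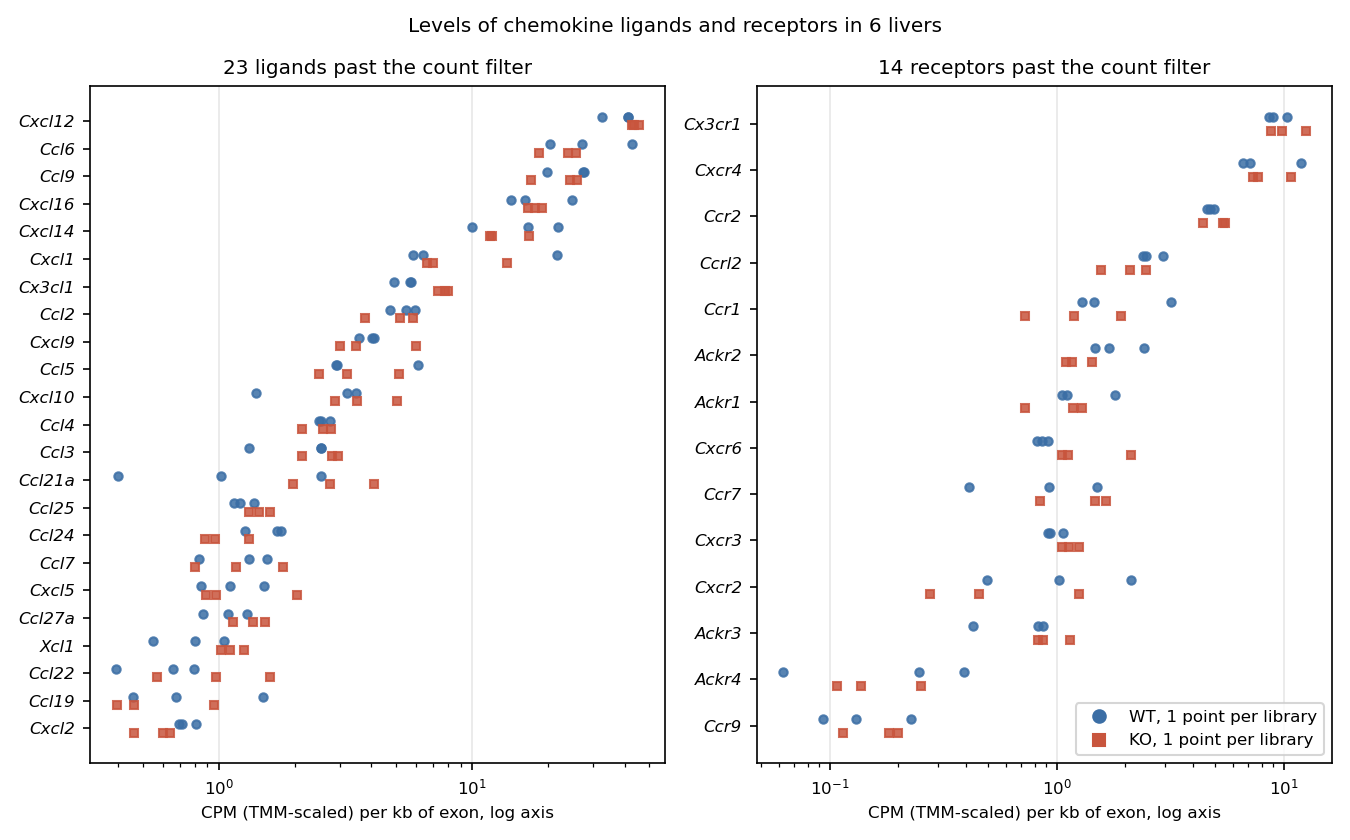
Levels of 23 chemokine ligands (left) and 14 receptors (right) past the count filter, in CPM per kb of exon on a log axis, with 1 point per library (circles WT, squares KO). Cxcl12 leads the ligands and Cx3cr1 the receptors, and WT and KO points of most genes overlap.

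Across genes, no chemokine ligand or receptor passed the test between the genotypes. The count filter left 38 of the 60 (23 ligands and 15 receptors) and 17083 genes in all. edgeR's quasi-likelihood test with Benjamini-Hochberg adjustment over all 17083 called 0 of the 38 (smallest adjusted p = 0.850), where it called 0% of all genes tested. At an unadjusted p under 0.05 there were 3 of the 38, Cx3cl1 and Cxcr6 higher and Ackr2 lower in KO liver, and 5.19% of all genes tested reached that p. The share of genes higher at that p was 3.08% and of genes lower 2.1%. The genotypes did not overlap in 5 of the 38, with Cx3cl1, Cxcl12 and Cxcr6 above and Ackr2 and Cxcl2 below WT, against 11.1% of all genes tested (6.21% above and 4.9% below). Both counts are near that background, so they are no result about the family. limma-voom called 0 members and 0% of all genes, and DESeq2 called 0 members and 0.0607% of the genes to which it gave an adjusted p (smallest among members 0.177, for Cx3cl1). At an unadjusted p under 0.05 there were 4 of the 38 members in limma-voom, where 5.16% of all genes reached it, and 4 in DESeq2, where 4.45% of the same 17083 genes did (2.83% of all genes with a DESeq2 p).

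Log2 fold changes (KO over WT) of the 38 were split 20 positive to 18 negative, where 49% of all genes tested were positive, and had a median of 0.017 where all genes tested had -0.0048. Without the count filter, 33 of the 57 members with a count were positive, with a median of 0.11, against 49.7% of all 29609 genes. With scaling by library size alone the median of all genes went to 0.075 and 67.1% of them were positive, beside 23 of the 38 members, with Ccl4 and Cxcl16 among those that changed sign. The 95% interval of the log2 fold change included 0 in 35 of the 38 members, and in 21 it lay wholly between -1 and 1. For the other members these libraries leave room for a difference of 2-fold or more.

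**Figure D2:**
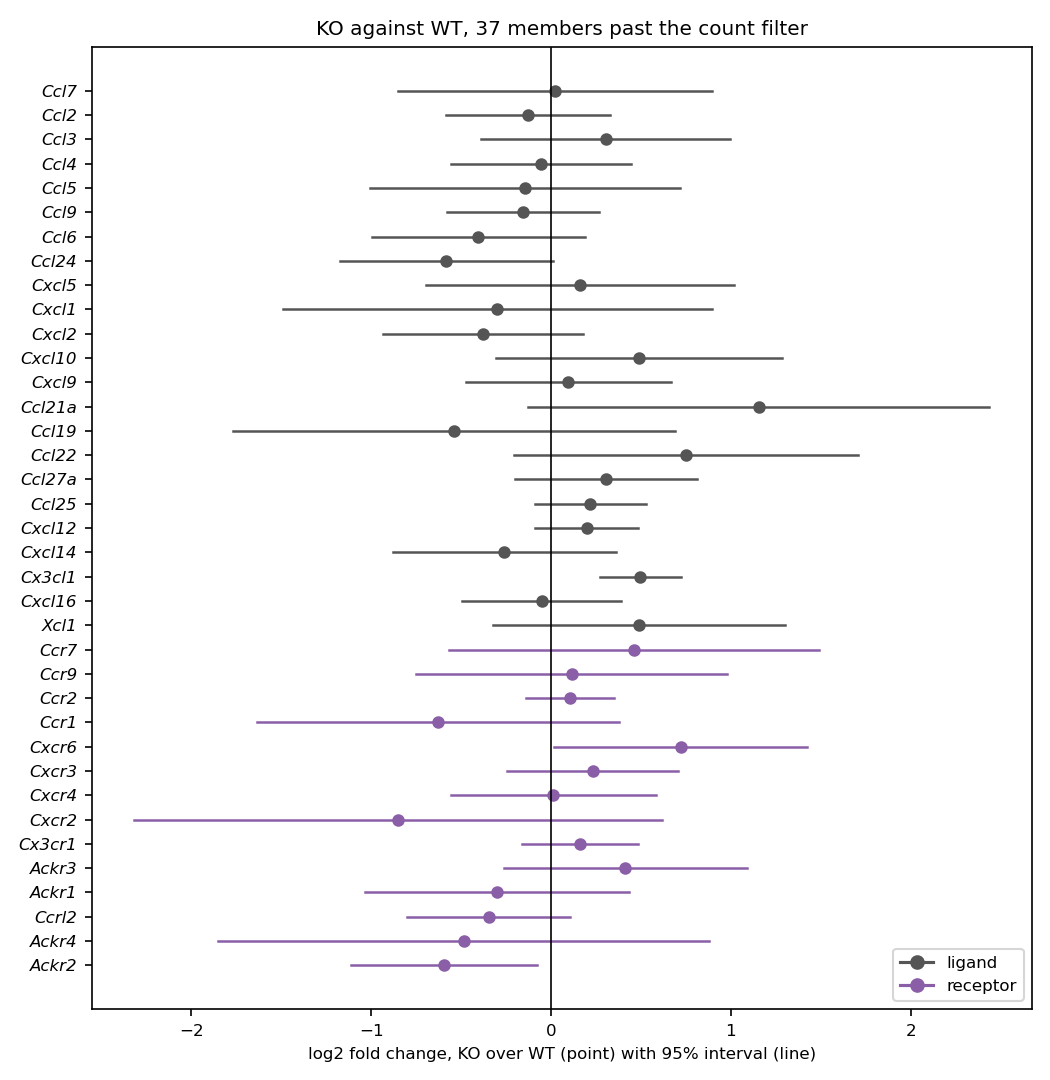
Log2 fold change of KO over WT (points) with its 95% interval (lines) for 37 of the 38 members past the count filter, ordered by role, ligands in grey and receptors in purple. Intervals of Cx3cl1, Cxcr6 and Ackr2 exclude 0, none of them after adjustment over all genes, and those of Cxcr2 and Ccl21a are among the widest.

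Of the 2 ligands made as transmembrane proteins, Cx3cl1 and Cxcl16, the first gave the smallest p of the family. Cx3cl1, fractalkine, was at 19.4, 22.6 and 22.4 CPM in WT livers against 28.8, 31.4 and 30.6 CPM in KO livers. Every KO library lay above every WT library, and the spread within a genotype was small. The means were 21.4 ± 1.81 and 30.3 ± 1.34 CPM (SD, n = 3 each), a log2 fold change of 0.50 (95% interval 0.27 to 0.72, edgeR unadjusted p = 0.000944, adjusted p = 0.850). It went to between 0.42 and 0.53 with any library left out and to 0.57 by library size alone. Cx3cl1 (ENSMUSG00000031778) spans chr8:94772009-94782427 (GRCm38, plus strand) and has up to 4 exons in a transcript.

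Bile duct epithelium is 1 of the liver's sources of CX3CL1. All 7 bile duct markers had a positive log2 fold change (median 0.38), where 49% of all genes tested did, and 4 lay higher in every KO library, where 6.21% of all genes did. None of the 7 passed edgeR's test (smallest adjusted p = 0.850). At an unadjusted p under 0.05 there were 5, where 5.19% of all genes tested reached that p, 3.08% as higher in KO liver. The Kupffer cell and dendritic cell lists used below each held 2 at that p, and no other marker list held more than 1. All marker lists were chosen with earlier results of these data known, and markers of 1 cell type can vary together. Counts of markers are therefore a description and no test of a list. The summed level of the bile duct markers was 301, 428 and 316 CPM in WT livers against 458, 446 and 568 CPM in KO livers. It too was higher in every KO library. No marker of the list was at 0 in any library, and the part of bile duct RNA in the Cx3cl1 value was not tested. In whole-liver RNA, a change in the number of cells of a type and a change in RNA per cell cannot be told apart.

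Cx3cr1, the receptor of fractalkine, was at 38.9, 40.5 and 46.6 CPM in WT livers against 44.5, 56.5 and 39.8 CPM in KO livers (log2 fold change 0.16, SE 0.14). The genotypes overlapped, and KO replicate 2 was the highest. The level of Cx3cl1 per unit of Cx3cr1, both in CPM, was 0.498, 0.558 and 0.480 in WT livers against 0.647, 0.557 and 0.768 in KO livers, which overlap too. Cxcl16, whose soluble form attracts CXCR6-bearing T and NKT cells, stood at 55.6 ± 17.0 CPM in WT livers against 53.6 ± 3.27 CPM in KO livers (SD, n = 3). WT replicate 3 held 74.8 CPM and the other WT libraries 48.9 and 43.0, so the WT mean rests in part on that library. Exons of Cxcl16 overlap those of Zmynd15 on the opposite strand.

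Genes of the fractalkine locus lie side by side on chromosome 8, in the order Ccl22, Cx3cl1 and Ccl17, with 20309 and 28025 bases between them. Ccl22, a macrophage and dendritic cell product that calls CCR4-bearing T cells, was at 1.54, 1.85 and 0.909 CPM in WT livers against 2.27, 1.33 and 3.70 CPM in KO livers. Its genotypes overlapped, and KO replicate 3 was far above the rest (log2 fold change 0.75, SE 0.41; 0.31 without KO replicate 3). Ccl17, the other CCR4 ligand, had 2, 6 and 3 counts in WT livers against 9, 2 and 3 counts in KO livers and was not tested. The separation seen in Cx3cl1 was not seen in Ccl22, whose log2 fold change had the same sign. With an SE of 0.41 for Ccl22 and so few counts for Ccl17, these values cannot decide whether the neighbours shared the difference.

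Of the CCR2 ligands, which draw monocytes into an injured liver, Ccl2 and Ccl7 passed the filter. Ccl2 was at 6.24, 6.76 and 5.40 CPM in WT livers against 6.67, 5.92 and 4.28 CPM in KO livers, with overlapping genotypes (log2 fold change -0.13, 95% interval -0.58 to 0.33). Ccl7 stood at 0.986 ± 0.290 CPM in WT livers against 1.01 ± 0.401 CPM in KO livers (SD, n = 3). Ccl12 had at most 4 counts in a library. The receptor Ccr2, the mark of monocytes recently come from blood, was among the steadiest members, at 31.9, 33.5 and 30.99 CPM in WT livers against 29.9, 37.2 and 36.7 CPM in KO livers. Its highest library was 1.24 times its lowest, and the log2 fold change of 0.11 had an interval from -0.14 to 0.35.

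The other inflammatory CC ligands, which act on macrophages, T cells and eosinophils, numbered 9, of which 6 passed the filter. Of these, 5 had a negative and 1 a positive log2 fold change, where 49% of all genes tested were positive. Ccl6 was at 48.8, 36.3 and 76.6 CPM in WT livers against 32.9, 46.2 and 42.8 CPM in KO livers. WT replicate 3 stood alone at the top, and the log2 fold change of -0.41 (SE 0.26) went to -0.065 without it. Ccl9, its neighbour on chromosome 11, was at 76.0 ± 13.5 CPM in WT livers against 68.3 ± 14.2 CPM in KO livers (SD, n = 3). Ccl24, eotaxin-2, which attracts eosinophils through CCR3, was at 1.63, 2.27 and 2.20 CPM in WT livers against 1.70, 1.14 and 1.25 CPM in KO livers. KO replicate 1 lay just above WT replicate 1, so the genotypes overlapped (log2 fold change -0.58, 95% interval -1.18 to 0.0095, edgeR adjusted p = 0.850).

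Kupffer cells and other macrophages make CCL6, CCL9 and CCL24, and Kupffer cell markers varied from library to library too. All 8 of these markers had a negative log2 fold change (median -0.88), where 49% of all genes tested had a positive one. Summed levels were 618, 463 and 1019 CPM in WT livers against 561, 529 and 315 CPM in KO livers, with no marker at 0. The sum was highest in WT replicate 3, which was the highest library for 7 of the 8 markers, and KO replicate 3 was the lowest for 7. Ccl6 and Ccl9 were also highest in WT replicate 3, but both were lowest in KO replicate 1, where the sum was 561 CPM. Ccl24 was highest in WT replicate 2, where the sum was the lowest of the WT livers. The part of these markers in the values of Ccl6, Ccl9 and Ccl24 was not tested. General macrophage and monocyte markers were split 6 positive to 3 negative, with a median of 0.02 and sums of 1899.5 to 2499.5 CPM in WT livers against 2015 to 2458 CPM in KO livers. Ccl5, made by T cells and NK cells, was at 2.77, 2.81 and 5.88 CPM in WT livers against 4.92, 2.39 and 3.08 CPM in KO livers, highest in 1 library of each genotype. Ccl3 and Ccl4, the macrophage inflammatory proteins MIP-1 alpha and beta, had log2 fold changes of 0.30 with SE 0.30 and of -0.06 with SE 0.22. Ccr1 was at 4.16, 3.65 and 9.09 CPM in WT livers against 2.05, 5.42 and 3.39 CPM in KO livers. It was highest in WT replicate 3 and, among KO libraries, in replicate 2. The log2 fold change of Ccr1 was -0.63 (SE 0.44) and went to -0.10 without WT replicate 3.

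The CXCR2 ligands whose promoters are printed above spanned a wide range of levels. Cxcl1 stood at 10.2, Cxcl2 at 0.655 and Cxcl3 at 0.0236 CPM per kb, although all carry the run GGGAATTTCCC. Cxcl1 was at 40.5, 11.9 and 10.95 CPM in WT livers against 12.5, 25.7 and 13.1 CPM in KO livers. WT replicate 1 and KO replicate 2 were high and the other 4 libraries lay between 10.95 and 13.1 CPM. The log2 fold change of -0.30 (95% interval -1.49 to 0.89) turned to 0.57 once WT replicate 1 was left out and to -0.72 once KO replicate 2 was, so 1 library decides its sign. Cxcl2 was at 1.44, 1.68 and 1.48 CPM in WT livers against 0.958, 1.33 and 1.25 CPM in KO livers, all KO libraries below all WT libraries, with 22 to 40 counts behind each value (log2 fold change -0.38, SE 0.24, edgeR unadjusted p = 0.154). Cxcl3 had at most 4 counts, and Cxcl5 stood at 2.15 ± 0.620 CPM in WT livers against 2.42 ± 1.19 CPM in KO livers (SD, n = 3). Thus Cxcl1 and Cxcl2 did not share their pattern over the libraries.

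Cxcr2, the receptor of these ligands on neutrophils, varied more than most members. It was at 3.12, 1.51 and 6.50 CPM in WT livers against 1.39, 3.83 and 0.847 CPM in KO livers, a 7.68-fold range. WT replicates 1 and 3 and KO replicate 2 were high and the other 3 low. The log2 fold change of -0.85 (SE 0.64) went to -0.16 without WT replicate 3 and to -1.72 without KO replicate 2. Neutrophil markers ran the same way, with sums of 72.2, 29.2 and 153 CPM in WT livers against 40.5, 100.0 and 36.2 CPM in KO livers. All 7 of the 8 markers that were tested had a negative log2 fold change (median -0.69), where 49% of all genes tested had a positive one. WT replicate 3 was the highest library for all 7 markers, and only Ly6g was at 0 in a library. The part of these markers in the Cxcr2 value was not tested. Cxcl1 did not follow them, since it was low in WT replicate 3, where the markers were highest. Cxcr1 had at most 8 counts.

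**Figure D3:**
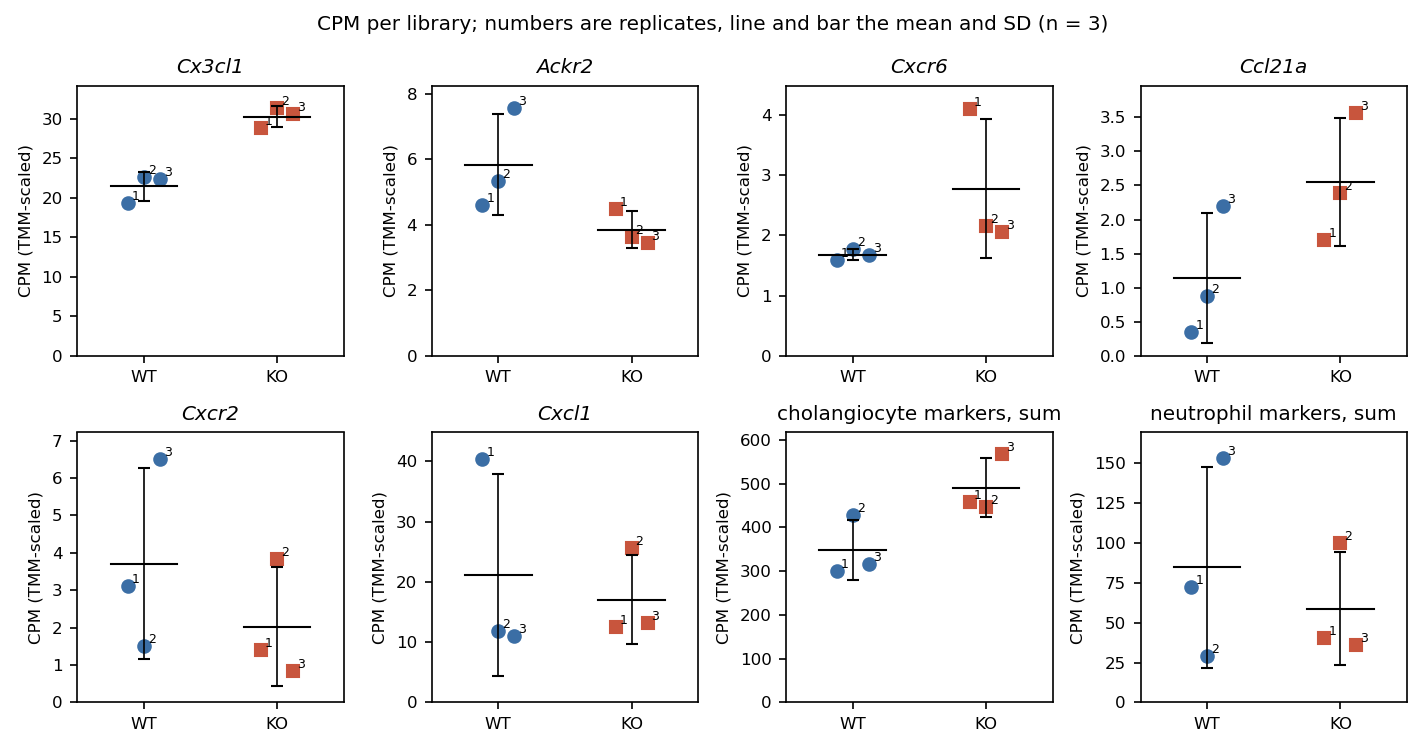
CPM of 6 members and the summed CPM of 2 marker lists in each library (circles WT, squares KO, numbered by replicate), with the mean and SD (n = 3). Cx3cl1 and the bile duct sum are higher in every KO library, and Cxcr2 follows the neutrophil sum, with WT replicate 3 highest in both.

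The interferon-induced CXCR3 ligands were led by 1 library. Cxcl9 was at 10.8, 12.3 and 12.1 CPM in WT livers against 18.2, 9.06 and 10.5 CPM in KO livers, and Cxcl10 at 7.23, 7.86 and 3.16 CPM in WT livers against 11.4, 6.45 and 7.89 CPM in KO livers. KO replicate 1 was the highest for both, and the genotypes overlapped. Cxcl10 had a log2 fold change of 0.49 (SE 0.35), which went to 0.18 without WT replicate 3, its lowest library, and Cxcl9 had one of 0.10 (SE 0.25), which went to -0.27 without KO replicate 1. Irf1, a transcription factor of the interferon response, was also highest in KO replicate 1, at 52.0, 46.5 and 40.1 CPM in WT livers against 66.5, 39.9 and 45.0 CPM in KO livers. Exons of Cxcl10 overlap those of Art3 on the opposite strand. The receptor Cxcr3, on activated T cells and NK cells, was at 1.69 ± 0.142 CPM in WT livers against 1.99 ± 0.181 CPM in KO livers (SD, n = 3), a log2 fold change of 0.23 (SE 0.21).

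Cxcr6, the receptor of CXCL16 on liver-resident T, NKT and innate lymphoid cells, did not overlap between the genotypes. Its level was 1.58, 1.76 and 1.67 CPM in WT livers against 4.10, 2.16 and 2.05 CPM in KO livers. KO replicate 1 was almost double the other KO libraries, which lay close above WT. The log2 fold change was 0.72 (95% interval 0.02 to 1.42, edgeR unadjusted p = 0.0460, adjusted p = 0.850) and went to 0.33 without KO replicate 1, with an unadjusted p of 0.203. T and NK cell markers summed to 12.2, 11.97 and 17.5 CPM in WT livers against 18.9, 11.7 and 14.7 CPM in KO livers, also highest in KO replicate 1. Unlike Cxcr6, the sum overlapped between the genotypes and was next highest in WT replicate 3, where Cxcr6 was at 1.67 CPM. Of these markers 8 of 10 were positive, where 49% of all genes tested were, with a median of 0.13 and none at 0 in any library. Their part in the Cxcr6 value was not tested. Xcl1, the C-class ligand of activated T and NK cells, had 6 to 15 counts in a library and a log2 fold change of 0.49 (SE 0.35).

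CCR7 and its ligands guide dendritic cells and lymphocytes through lymphatic vessels. Ccl21a was at 0.347, 0.882 and 2.20 CPM in WT livers against 1.70, 2.39 and 3.57 CPM in KO livers, from 7 to 80 counts. Its highest library was 10.3 times its lowest, the widest range among the members with a mean of at least 0.5 CPM, and the genotypes overlapped. The log2 fold change of 1.15 (95% interval -0.13 to 2.44, edgeR adjusted p = 0.850) went to 0.73 without WT replicate 1 and to 2.01 without WT replicate 3. Ccl21a has near-identical copies in the genome, and Ccl21b had 0 counts in every library, so how reads were divided among the copies is uncertain. Ccl19, the other CCR7 ligand, was at 0.759 ± 0.471 CPM in WT livers against 0.523 ± 0.265 CPM in KO livers (SD, n = 3), with a log2 fold change of opposite sign to that of Ccl21a (-0.54, SE 0.53).

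Ccr7 itself was at 1.83, 2.98 and 0.813 CPM in WT livers against 2.92, 1.67 and 3.25 CPM in KO livers. KO replicates 1 and 3 and WT replicate 2 were high, and so they were for Ccl22 and for Xcr1, the receptor of XCL1 on cross-presenting dendritic cells, which was at 1.14, 2.06 and 1.196 CPM in WT livers against 2.92, 1.52 and 3.12 CPM in KO livers. Log2 fold changes were 0.46 (SE 0.45) for Ccr7 and 0.76 (SE 0.36) for Xcr1. Dendritic cell markers were all positive (7 of 7, median 0.47), where 49% of all genes tested were. Their sums were 146, 154 and 196 CPM in WT livers against 250, 149 and 184 CPM in KO livers, with none at 0. The sum did not follow Ccr7 and Ccl22, since both were lowest in WT replicate 3, where it was the highest of the WT livers. The part of these markers in the values of Ccr7, Ccl22 and Xcr1 was not tested. Ackr4, the scavenger of CCL19, CCL21 and CCL25, had 27, 50 and 7 counts in WT livers against 17, 36 and 13 counts in KO livers, a 6.27-fold range in CPM, and its exons overlap those of Acad11.

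Cxcl12 and Cxcl14 are ligands that tissues also make at rest. Cxcl12 made up between 32.4 and 45.6% of the summed CPM of the 60 genes in a library. It was at 338, 337 and 266 CPM in WT livers against 356, 372 and 351 CPM in KO livers. All KO libraries lay above all WT libraries, though WT replicates 1 and 2 came close to them and WT replicate 3 stood apart below. The means were 314 ± 41.0 and 360 ± 10.9 CPM (SD, n = 3), a log2 fold change of 0.20 (95% interval -0.09 to 0.48, edgeR unadjusted p = 0.153), which went to 0.09 without WT replicate 3. Stellate cells and sinusoidal endothelium are known sources of CXCL12. Stellate cell markers were split 2 positive to 6 negative with sums of 867 to 1048 CPM in WT livers against 809 to 920 CPM in KO livers. All 6 sinusoidal endothelial markers were negative, where 49% of all genes tested were positive, with sums of 555 to 826 and 475 to 617 CPM. KO replicate 3 was the lowest library for all 6. The sums of both lists overlapped between the genotypes, no marker was at 0, and their part in the Cxcl12 value was not tested.

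The CXCL12 receptors Cxcr4 and Ackr3 showed no separation of the genotypes. Cxcr4 was at 11.98, 12.9 and 21.5 CPM in WT livers against 13.3, 19.5 and 14.0 CPM in KO livers, high in WT replicate 3 and KO replicate 2 (log2 fold change 0.01, SE 0.25). Ackr3, which scavenges CXCL12, was at 2.38 ± 0.819 CPM in WT livers against 3.17 ± 0.576 CPM in KO livers (SD, n = 3). Cxcl14 was at 30.4, 18.3 and 39.9 CPM in WT livers against 21.9, 30.5 and 21.5 CPM in KO livers, so WT replicates 1 and 3 and KO replicate 2 were high for it as they were for Cxcr2. Cxcl13, the B cell attractant, had 18 counts in WT replicate 3 and at most 7 in the others.

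Ccl25 and Ccl27a, ligands of barrier tissues, had positive log2 fold changes with overlapping genotypes. Ccl25, a CCR9 ligand best known from gut and thymus, was at 10.3, 8.99 and 8.56 CPM in WT livers against 10.7, 9.82 and 11.9 CPM in KO livers (log2 fold change 0.22, 95% interval -0.09 to 0.53), and its exons overlap those of Elavl1. Ccl27a, a CCR10 ligand with near-identical copies, had a log2 fold change of 0.30 (SE 0.22). Their receptors were scarce, with Ccr10 at no more than 1 count in a library and Ccr9 at 20 to 56 counts over overlapping gene models. Ccl20, the CCR6 ligand, had 23 counts in KO replicate 2 and 2 to 7 in the others, the largest count of any member that failed the filter.

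Of the 5 atypical receptors, 4 had a negative and 1, Ackr3, a positive log2 fold change, where 49% of all genes tested were positive. Ackr2, which degrades inflammatory CC chemokines, was at 4.61, 5.33 and 7.56 CPM in WT livers against 4.49, 3.64 and 3.43 CPM in KO livers. The genotypes did not overlap, but WT replicate 1 and KO replicate 1 differed by little. The means were 5.83 ± 1.54 and 3.85 ± 0.559 CPM (SD, n = 3), a log2 fold change of -0.60 (95% interval -1.11 to -0.08, edgeR unadjusted p = 0.0285, adjusted p = 0.850), which went to -0.37 without WT replicate 3. Ccrl2 was at 7.68, 6.26 and 6.41 CPM in WT livers against 5.49, 4.10 and 6.42 CPM in KO livers, overlapping by KO replicate 3 (log2 fold change -0.35, 95% interval -0.80 to 0.11). Ackr1, the chemokine-binding Duffy antigen of venules and red cells, had a log2 fold change of -0.30 (SE 0.32), and its exons overlap those of Cadm3 on the same strand.

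The 22 members that did not pass the filter, 14 ligands and 8 receptors, had at most 23 counts in any library. Ccl21b, Ccl26 and Cxcl15 had 0 counts in all 6, which by the limit of 3 counts allows up to 0.114 to 0.149 CPM, depending on the library, for counting error alone. Ccl8 had 6, 2 and 4 counts in WT livers against 8, 9 and 8 in KO livers, and Ccr6 had 3, 1 and 2 against 8, 5 and 4, both without overlap in CPM at counts too low for the test. Ccr3, Ccr4, Ccr8 and Cxcr5, receptors of eosinophils, T cell subsets and B cells, had at most 14 counts in a library.

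Members varied widely from library to library. The highest of the 6 libraries was over 2 times the lowest in 22 of the 38 tested members (57.9%), where this held for 23.1% of all genes tested. At like levels the members' ratio was also the higher one. Among genes of 0.5 to 5 CPM the median ratio was 2.46 over 22 members and 2.03 over all 5126 genes, and among genes of 5 to 50 CPM it was 1.79 over 13 members and 1.35 over all 7568. WT replicate 3 was the highest library for 12 of the 38 members and the lowest for 12 others, where it was the highest for 24.0% of all genes and the lowest for 24.0%. KO replicate 1 was the highest for 9 members (23.7%), among them Cxcl9, Cxcl10, Cxcr6 and Cxcl5, where it was the highest for 11.9% of all genes.

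**Figure D4:**
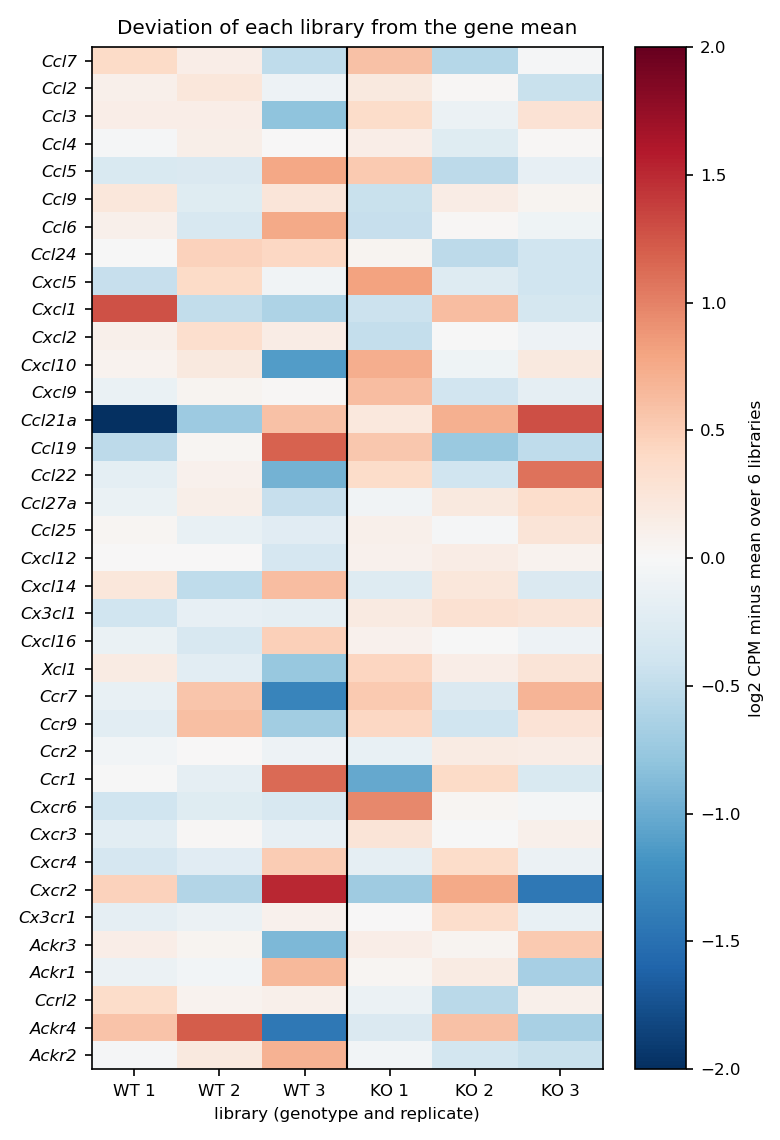
Deviation of each library from the mean log2 CPM of the gene, for 37 of the 38 tested members in the order of their roles, with WT libraries left and KO libraries right of the line. Red is above and blue below the mean. Cx3cl1 has all WT libraries below and all KO libraries above the mean. Strong colours include Ccl21a in WT replicate 1 (below), and Cxcr2 in WT replicate 3 (above) and KO replicate 3 (below).

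Genes of the chemokine system outside the symbol rule gave 0 calls as well. The list held 45 genes for other ligands and receptors, sheddases, G protein subunits, kinases and exchange factors downstream of the receptors, and NF-kB and interferon factors. All 45 were tested and 0 passed edgeR's test. Of these, 14 had a positive and 31 a negative log2 fold change (median -0.09), where 49% of all genes tested were positive (median -0.0048). WT replicate 3 was the highest library for 30 of the 45, where it was the highest for 24.0% of all genes. How far the split rests on that library was not tested. At an unadjusted p under 0.05 in edgeR were 2 of the 45, where 5.19% of all genes tested reached that p. That count is near the background, so it is no result about the list. The 2 were Fpr1 and Fpr2, formyl peptide receptors of neutrophils and macrophages. Fpr1 was at 3.12, 2.77 and 7.99 CPM in WT livers against 1.92, 2.54 and 1.07 CPM in KO livers, all KO libraries below all WT libraries (log2 fold change -1.31, SE 0.47, edgeR adjusted p = 0.850), and Fpr2 had one of -1.003 (SE 0.40) with overlap. Next came Rgs1, a brake on chemokine receptor signalling (-0.36, SE 0.16). Sdc4, a heparan sulphate proteoglycan of the cell surface that can hold chemokines, followed (-0.34, SE 0.15). Without WT replicate 3 the log2 fold changes went to -0.665 for Fpr1, -0.56 for Fpr2, -0.19 for Rgs1 and -0.20 for Sdc4. The sheddases that free CX3CL1 and CXCL16 from the membrane, Adam10 and Adam17, stood at -0.05 (SE 0.10) and -0.01 (SE 0.10), with overlapping genotypes.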

How the data were processed

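The deposited table holds raw counts, whole numbers of reads that the authors assigned to each of 55416 Ensembl genes in 6 libraries. Per the labels' protocols the kit was directional, with polyA enrichment and Illumina NovaSeq reads. The submitters' processing notes list STAR 2.7.6a, featureCounts 1.6.3 and DESeq2 1.30.0, with no roles. Which annotation and strand setting served for counting is not given in these sources, so reads of overlapping and near-identical genes are uncertain. Symbols, positions and union exon lengths came from GENCODE M21 (GRCm38), which held 52135 of the IDs.

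Samples were grouped by the genotype in the labels. In R 4.3.3, edgeR 4.0.16 scaled libraries by TMM, kept genes by filterByExpr (minimum count 10, minimum total 15) and fitted genotype alone with glmQLFit and glmQLFTest. P-values were Benjamini-Hochberg adjusted over all 17083 genes kept, with 0.05 as threshold. SE is the log2 fold change over the root of F. Alternatives were other scalings, filters and tools (limma 3.58.1, DESeq2 1.42.0), a replicate block and leaving out each library. The code was tested on simulated counts.

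Named genes are the 8 ligands and 6 receptors highest per kb, the 8 members with the smallest p, the 5 with the widest range, Ephb2 and 4 genes of the wider system, with others named in their role group. Results for 1 member and 1 gene of the wider system are not reported here. Members and lists were chosen with earlier results of these data known. Every pair of libraries differed by more than sampling noise (chi-square per degree of freedom 11.4 to 77.1).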

Additional observations from a re-analysis of the deposited data

How the results depend on the processing

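No chemokine ligand or receptor and none of the 45 further genes of the chemokine system passed the threshold under any alternative, namely DESeq2 size factors, library size only, no count filter, a filter of 1 CPM in 3 libraries, the DESeq2 Wald test, limma-voom, the replicate block, an adjusted p under 0.1 and any library left out. DESeq2 gave an adjusted p for 22 of the members. Over all genes, edgeR called 3 without a count filter, DESeq2 called 8, and leaving out 1 library gave 0 to 2, the 2 without WT replicate 3, all against 0; the cause was not tested. The median log2 fold change of members was 0.017 and lay between -0.070 and 0.095 with a library left out, 0.098 by library size alone (where all genes had 0.075) and 0.015 with the replicate block. With the block 0 genes were called, and 2 members, Cx3cl1 and Ccl21a, had an unadjusted p under 0.05 in place of 3, where 3.14% of all genes did in place of 5.19%. The labels do not link a WT number to a KO number, so the numbers were not taken as pairs. Same-numbered WT and KO libraries deviated from their group means with correlations of -0.030, -0.55 and -0.37 over genes. Differently numbered ones had correlations of -0.20 to 0.46. With 3 libraries in each group these values cannot decide whether animals were paired. Taking the longest transcript as length gave 59.9 CPM per kb for Cxcl12, 5.83 for Ccr2, 3.93 for Ccl25 and 0.399 for Ackr4, and put Ccl5 in place of Ccl2 among the 8 highest ligands. The log2 ratio of Ephb2 was -0.47, -0.38 by library size alone and -0.63 to -0.28 with a library left out, chosen after seeing the data. Depth limits the 22 members under the filter, for which the table held too few counts to compare the genotypes.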
